A study of Homo sapiens with 8 samples.

Results

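Transcripts of 10 genes of the DNA damage checkpoint were followed in MCF10A cells, a line of non-tumorigenic breast epithelium of human origin, with p53 (p53+/+) and without it (p53-/-). The genes were chosen by name: the kinases ATM, ATR, CHEK1, CHEK2 and WEE1, the CHEK1 adaptor claspin (CLSPN), the phosphatases CDC25A, CDC25B and CDC25C, and 14-3-3 sigma (SFN). All 10 were among the 20296 genes that could be named on the array, and all 10 were well above background on at least 1 array, as were 15811 genes in all. ATM and ATR are kinases that respond to broken DNA and to single-stranded DNA at stalled replication forks, and they pass the signal to CHEK2 and CHEK1. The checkpoint kinases inactivate the CDC25 phosphatases, whose task is to remove from cyclin-dependent kinases the inhibitory phosphates that WEE1 adds. SFN is a known target of p53 in epithelial cells and holds cyclin B and CDK1 in the cytoplasm.

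The cells were untreated (0 h) or were harvested 12, 24 and 48 h after doxorubicin (adriamycin, ADR), a drug that breaks DNA. The labels give 0.5 µg/ml for 2 h, started 24 h after plating, while the study's methods name a higher dose for these cells. Which of the doses was used is not settled here. The 8 arrays carried 4 p53+/+ and 4 p53-/- samples, 1 for each time, so no condition had a replicate. The sources used here do not state how the p53-/- line was made or whether it is 1 clone. All 8 arrays lay on 1 slide, with the p53-/- arrays in one column and the p53+/+ arrays in the other, so the effect of position and that of genotype cannot be told apart. Levels are given as log2 of the processed signal relative to the 75th percentile of the array, so that a difference of 1 is 2-fold, and a level can be compared between arrays but not between genes.

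The labels were checked against the data first. Decorin (DCN), from the list of markers of other cell types, read 2.09 to 2.37 on the treated p53+/+ arrays, 5.70 to 6.07 on the p53-/- arrays and 5.75 on the array labelled p53+/+ 0 h. Over 11828 genes well above background on all arrays, the array closest to that one was p53-/- 12 h, with a median absolute log2 difference of 0.18, which was the smallest among the 28 pairs of arrays, against 0.27 to the p53-/- 0 h array and 0.43 to 0.53 to the treated p53+/+ arrays. CDKN1A, a cell cycle inhibitor and p53 target, read 2.54 or more on the treated p53+/+ arrays, −1.14 on the array labelled p53+/+ 0 h, −2.97 on the p53-/- 0 h array and −0.96 to −0.48 on the treated p53-/- arrays. MDM2, another p53 target, read 1.29 to 1.76, −1.66, −1.33 and −2.04 to −1.33 in the same order. The array labelled p53+/+ 0 h thus lay with the p53-/- arrays, nearest to a treated one. It was the only untreated p53+/+ array, so a wrong label and the untreated state cannot be told apart, and every change measured from it carries this doubt. Setting treated p53+/+ against treated p53-/- arrays needs no 0 h array, and this comparison is given first. On the p53+/+ 48 h array 0.286% of spike-in control spots were well above background, against 59.1 to 60.6% on the other 7 arrays. Of 6 markers of basal mammary epithelium (KRT5, KRT14, KRT17, CDH1, ITGB4 and EGFR), all were above background on every array, and their summed level was 173 to 268 times the 75th percentile on the treated p53+/+ arrays against 45.7 to 66.6 on the treated p53-/- arrays. Of 5 markers of other cell types, the leukocyte gene PTPRC was above background on all 8 arrays at −4.27 to −3.68, the T cell gene CD3E on 1 array, the endothelial gene PECAM1 on 5 and the hormone receptor ESR1 on 7, and the summed level of this list, nearly all of it from the fibroblast gene DCN, was 4.45 to 5.39 on the treated p53+/+ arrays and 52.2 to 67.3 on the treated p53-/- arrays. The part of these marker differences in the results below was not tested. In bulk RNA, fewer cells of a kind and less RNA per cell cannot be told apart.

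After ADR, 6 of the 10 transcripts were lower and 1 was higher in p53+/+ than in p53-/- cells without any overlap between the 3 treated arrays of each genotype, beside 19.9% and 24.6% of all 15811 genes. The lower ones were CHEK1, CHEK2, CLSPN, WEE1, CDC25A and CDC25C, the higher one was SFN, and ATM, ATR and CDC25B overlapped. By size, 5 of the 10 genes were at least 2-fold lower at all 3 times (CHEK1, CHEK2, CLSPN, CDC25A and CDC25C), where 5.92% of all genes were, and 1 (SFN) was at least 2-fold higher, where 6.75% were. With the treated times taken as replicates of a genotype, limma with Benjamini-Hochberg adjustment over 28947 probes called CHEK1, CHEK2, WEE1 and CDC25A lower and SFN higher in p53+/+ cells, that is, 4 and 1 of 10, beside 7.4% and 10.6% of all probes. Of all the probes called, 58.8% were higher in p53+/+ cells, a share that was 14.5% without scaling of the arrays and 73.3% with another background correction (normexp), while none of these 5 genes changed direction in any setting. Without the 24 h arrays limma called none of the 10 genes, beside 292 of 28947 probes in either direction. In that fit 6 lower genes and SFN still had an unadjusted p under 0.05, beside 19.6% of all probes. Without the 12 h or the 48 h arrays limma called 3 lower genes and SFN. Beside these, 1211 and 1133 of 28947 probes were called lower and 1459 and 1438 higher. CLSPN and CDC25C had the largest and the third largest estimates but did not pass the adjusted threshold of 0.05. The median estimate was −1.26 over the 10 genes and 0.09 over all probes. A p from this fit measures the difference against movement over time, not against the spread between cultures. The plot of the levels shows each array.

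**Figure D1:**
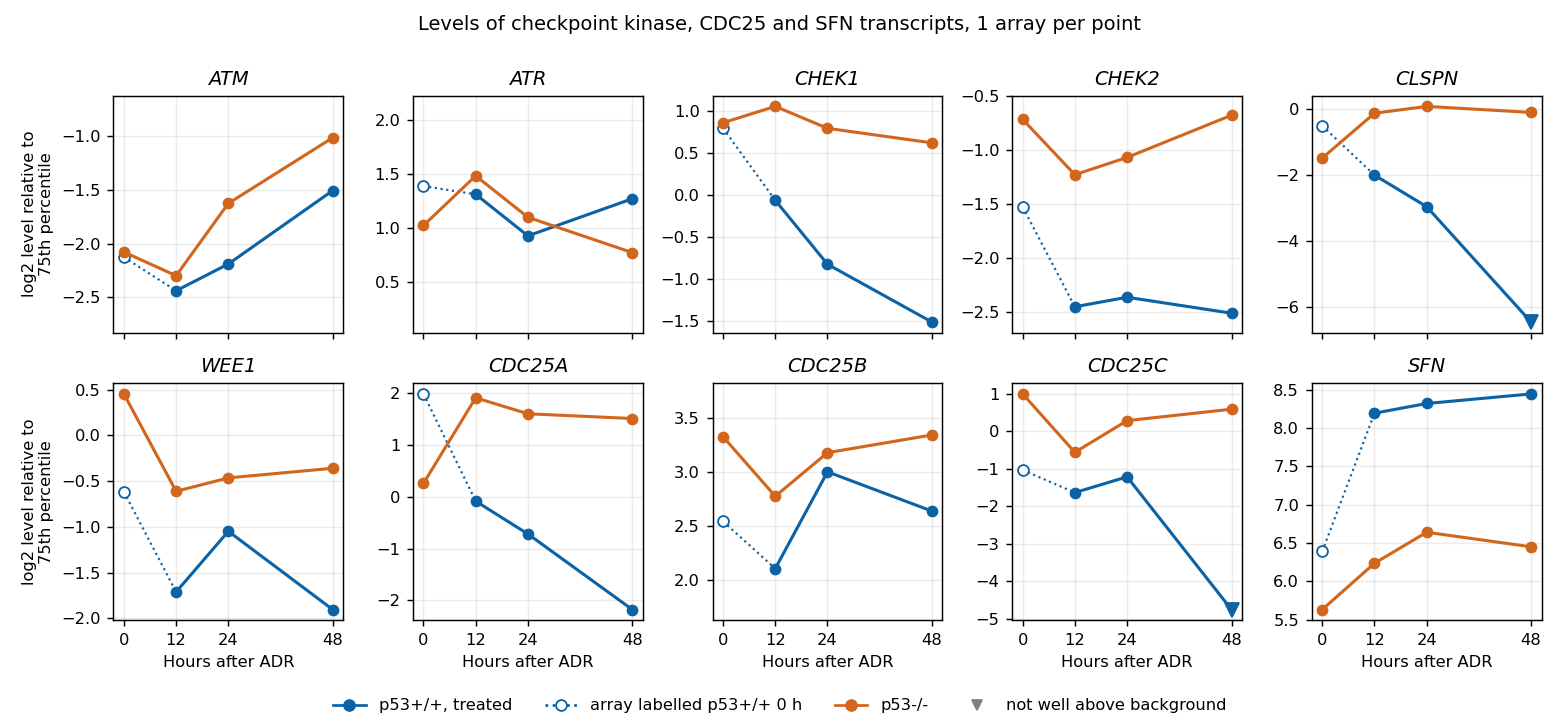
Log2 level relative to the array's 75th percentile (vertical axis, scaled per gene) against hours after ADR (horizontal axis) for the 10 genes, with 1 array per point. Blue points are p53+/+ and orange points p53-/-; the open circle is the array labelled p53+/+ 0 h, and triangles mark values not well above background. CHEK1, CLSPN and CDC25A went down with time in treated p53+/+ cells, to −1.52, −6.45 and −2.18 at 48 h, while SFN stayed between 8.19 and 8.45.

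The promoters of the 3 genes with the largest differences, CLSPN, CDC25A and CDC25C, are shown with that of SFN, which moved the other way. Each run holds 120 bases before and 10 bases from the transcription start, read 5′ to 3′ on the strand of the gene, from RefSeq for GRCh38.p14. Capitals mark letters of 3 cell cycle promoter motifs, searched on both strands: the E2F motif (TTTNNCGC, where each N is G or C), the cell cycle gene homology region or CHR (TTTGAA or TTCGAA), and the CCAAT box (CCAAT, read as ATTGG on the other strand). None of the matches shown overlaps another. Of CDC25C, start 1 of 4 listed starts is shown.

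CLSPN, chr1:35769969-35770098, minus strand: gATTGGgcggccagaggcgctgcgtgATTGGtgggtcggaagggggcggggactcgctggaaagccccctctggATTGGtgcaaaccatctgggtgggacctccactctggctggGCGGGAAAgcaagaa

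CDC25A, chr3:48188408-48188537, minus strand: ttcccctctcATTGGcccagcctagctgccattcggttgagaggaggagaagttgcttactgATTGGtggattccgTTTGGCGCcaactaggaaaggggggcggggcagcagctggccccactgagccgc

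CDC25C, chr5:138331795-138331924, minus strand: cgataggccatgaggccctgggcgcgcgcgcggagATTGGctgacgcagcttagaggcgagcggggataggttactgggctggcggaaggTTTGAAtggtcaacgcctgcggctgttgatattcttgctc

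SFN, chr1:26863029-26863158, plus strand: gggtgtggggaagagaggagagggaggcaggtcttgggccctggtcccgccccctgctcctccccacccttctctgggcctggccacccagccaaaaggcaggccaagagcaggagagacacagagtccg

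The E2F letters were found in 3.31% of 35116 windows of 300 bases around all listed starts, the CHR letters in 16.4% and the CCAAT letters in 34.6%. Among the 9 of the 10 genes with a listed start, CLSPN and CDC25A had the E2F letters in such a window, and no other had them. In CLSPN the E2F match began 5 bases before the start and ran across it, with CCAAT matches 119, 94 and 46 bases before. In CDC25A the E2F match began 44 bases before the start and CCAAT matches 110 and 58 bases before. CDC25C had the CHR letters 30 bases before start 1 and a CCAAT match 85 bases before it. The window of its start 2 also held both, while those of its starts 3 and 4 held none of the 3 motifs. ATM also had the CHR letters, 20 bases before its start 1, and CDC25B had them 38 bases before its start 3. SFN had 1 CCAAT match in its window, 13 bases after the start and so outside the run shown. CHEK1 and CHEK2 had CCAAT matches alone, and ATR had none of these letters. A match describes the letters and says nothing of whether a factor is bound.

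ATM and ATR, the kinases at the top of the pathway, were not called different between the genotypes. ATM read −2.44, −2.19 and −1.51 at 12, 24 and 48 h in treated p53+/+ cells and −2.30, −1.63 and −1.02 in treated p53-/- cells. Its values went up with time in both genotypes and overlapped. The limma estimate was −0.40 (SE 0.39, adjusted p = 0.526, p53+/+ lower at 3 of 3 times). A second ATM probe, printed in 10 spots and of nearly the same mean level, read −1.94, −1.91 and −2.11 in treated p53+/+ and −1.90, −1.88 and −2.13 in treated p53-/- cells, so the upward movement of the first probe was not seen with the second. ATR read 1.31, 0.92 and 1.27 in treated p53+/+ cells and 1.48, 1.10 and 0.77 in treated p53-/- cells. The order of the genotypes changed between 24 and 48 h, and the estimate was 0.05 (SE 0.24, adjusted p = 0.909 from limma). A second, dimmer ATR probe showed the same crossing, at −1.27, −1.74 and −1.39 against −0.89, −1.34 and −1.79.

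CHEK1, the kinase that ATR activates, and CLSPN, the adaptor that ATR needs to do so, were both lower in treated p53+/+ cells, and the gap widened with time. CHEK1 read −0.06, −0.83 and −1.52 at 12, 24 and 48 h in p53+/+ and 1.06, 0.79 and 0.62 in p53-/- cells. It was thus 2.17-, 3.08- and 4.40-fold lower in p53+/+ cells (technical SD of each log2 difference 0.08, which covers spots of an array only). The limma estimate was −1.63 (SE 0.38, adjusted p = 0.0297, lower at 3 of 3 times), and the adjusted p was 0.0764 without the 48 h arrays and 0.231 without the 24 h arrays. CLSPN read −2.00, −2.96 and −6.45 in p53+/+ and −0.13, 0.08 and −0.10 in p53-/- cells. The p53+/+ 48 h value was not well above background, so the difference there is a bound. CLSPN was 3.67- and 8.22-fold lower at 12 and 24 h and at least 23.0-fold lower at 48 h, where the bound sets the lowest signal well above background on that array (−4.63) in place of the measured value. The limma estimate, which took the measured value, was −3.76 (SE 1.06, adjusted p = 0.0549). Without the 48 h arrays it was −2.46 with an adjusted p of 0.0326 from limma, and it was under 0.05 in 5 further settings that kept them.

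CHEK2, which ATM activates, was lower in treated p53+/+ cells at each time. It read −2.46, −2.37 and −2.52 in p53+/+ and −1.23, −1.07 and −0.68 in p53-/- cells. The differences were 2.34-, 2.46- and 3.57-fold, and CHEK2 had the smallest adjusted p of the lower genes (estimate −1.45, SE 0.21, adjusted p = 0.00654 from limma). On the log2 scale the gap was −1.22 and −1.30 at 12 and 24 h and −1.84 at 48 h (technical SD 0.14), so it widened in the later interval. A dimmer probe of another CHEK2 transcript read −4.29 and −4.24 at 12 and 24 h and −5.85, not well above background, at 48 h in p53+/+ cells, against −4.05, −3.36 and −3.62 in p53-/- cells. Its 12 h difference was smaller. The treated arrays of this probe did not overlap between the genotypes either. It was printed in 1 spot, however, and −4.24 and −4.05 lie closer than the SD between spots at that level (0.43). The absence of overlap therefore says little. Without the 24 h arrays the adjusted p of CHEK2 was 0.120 from limma.

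WEE1, the kinase that opposes the CDC25 phosphatases, read −1.71, −1.05 and −1.91 in treated p53+/+ and −0.61, −0.46 and −0.36 in treated p53-/- cells. It was 2.15-, 1.50- and 2.92-fold lower in p53+/+ cells, with the 24 h difference under 2-fold. The estimate was −1.08 (SE 0.26, adjusted p = 0.0357 from limma). This was the weakest of the 5 calls: leaving out 12, 24 or 48 h gave adjusted p of 0.141, 0.124 and 0.156, and time as a block gave 0.0546.

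The 3 CDC25 phosphatases, which release cyclin-dependent kinases from WEE1, did not move alike. CDC25A, which acts on CDK2 as cells enter and pass through DNA synthesis, read −0.09, −0.72 and −2.18 at 12, 24 and 48 h in p53+/+ and 1.91, 1.60 and 1.51 in p53-/- cells. It was 3.99-, 4.99- and 12.9-fold lower in p53+/+ cells, and well above background on all 8 arrays. The estimate was −2.67 (SE 0.52, adjusted p = 0.0174 from limma), and it stood under 0.05 in 10 of 11 other settings, the exception being the fit without the 24 h arrays (0.168). CDC25C, which acts on CDK1 at entry into mitosis, read −1.64, −1.22 and −4.76 in p53+/+ and −0.57, 0.28 and 0.58 in p53-/- cells, and its p53+/+ 48 h value was not well above background. It was 2.11- and 2.83-fold lower at 12 and 24 h and at least 37.0-fold lower at 48 h. The step from 24 to 48 h in p53+/+ cells was at least 10.6-fold for CDC25C, at least 3.18-fold for CLSPN and 2.75-fold for CDC25A, and these steps rest on the array that lacked spike-in signal. The CDC25C estimate was −2.64 (SE 0.92, adjusted p = 0.0962 from limma). CDC25B, the member linked to the onset of mitosis at the centrosome, read 2.11, 3.00 and 2.64 in p53+/+ and 2.78, 3.18 and 3.35 in p53-/- cells. It was 1.59-, 1.13- and 1.63-fold lower and its ranges overlapped (estimate −0.52, SE 0.29, adjusted p = 0.257 from limma).

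SFN was the only one of the 10 genes called higher in treated p53+/+ cells. It read 8.19, 8.32 and 8.45 at 12, 24 and 48 h in p53+/+ and 6.24, 6.64 and 6.45 in p53-/- cells. The 3 p53+/+ values lay within 0.25 of each other, and the gap of 3.89-, 3.20- and 3.99-fold was already there at 12 h. The limma estimate was 1.88 (SE 0.19, adjusted p = 0.00229, higher at 3 of 3 times), with an adjusted p of 0.0698 without the 24 h arrays. The treated p53+/+ arrays of SFN also lay above the remaining 5 arrays, and those of the 6 lower genes below them, the array labelled p53+/+ 0 h included, as did 18.5% of all genes above and 14.1% below.

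**Figure D2:**
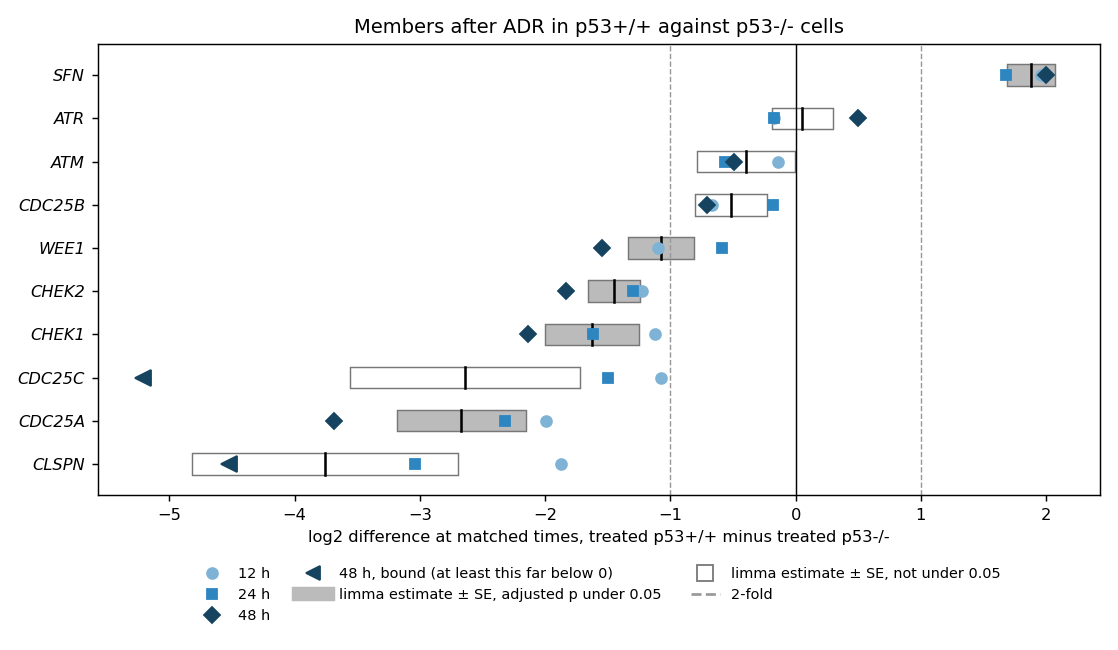
Log2 difference of treated p53+/+ minus treated p53-/- cells (horizontal axis) for each gene (vertical axis), with circles, squares and diamonds for 12, 24 and 48 h and left-pointing triangles where the 48 h value is a bound. Boxes give the limma estimate ± SE over the 3 times, filled where the adjusted p was under 0.05, and dashed lines mark 2-fold. CHEK1, CHEK2, CLSPN, CDC25A and CDC25C lie beyond 2-fold at all 3 times and SFN beyond it on the other side.

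The change from 0 h asks how each genotype responded to ADR. In p53-/- cells, CLSPN and CDC25A rose at least 2-fold at all 3 times, 2 of 10 genes beside 3.21% of all genes, and none fell so, beside 2.04%. CLSPN went from −1.48 at 0 h to −0.13, 0.08 and −0.10, or 2.56-, 2.96- and 2.61-fold higher. CDC25A went from 0.26 to 1.91, 1.60 and 1.51, or 3.14-, 2.54- and 2.38-fold higher. SFN went from 5.63 to 6.24, 6.64 and 6.45 without p53, up by 1.52-, 2.01- and 1.76-fold. WEE1 went from 0.45 to −0.61, −0.46 and −0.36, or 2.09-, 1.89- and 1.76-fold lower. CDC25C went from 0.99 to −0.57 at 12 h, 2.94-fold lower, and was back at 0.58 at 48 h. CHEK1, CHEK2, ATR and CDC25B stayed within 1.47-fold of their p53-/- 0 h level at each time, and ATM was 2.09-fold higher at 48 h with the first of its probes.

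In p53+/+ cells the changes depended on which untreated array was the reference. From the array labelled p53+/+ 0 h, 1 of 10 genes (SFN) was at least 2-fold higher at all 3 times, beside 9.53% of all genes, and 2 (CLSPN and CDC25A) were at least 2-fold lower, beside 6.39%. With the p53-/- 0 h array as the reference, the same rule gave SFN as higher, beside 9.55% of all genes, and CHEK2, WEE1 and CDC25C as lower, beside 6.79%. SFN was 3.49-, 3.81- and 4.16-fold higher with the first reference and 5.91-, 6.45- and 7.03-fold with the second. CDC25A was 4.20-, 6.51- and 17.9-fold lower with the first and 1.27-, 1.97- and 5.42-fold lower with the second, since the array labelled p53+/+ 0 h read 1.98 and the p53-/- 0 h array 0.26. CLSPN was 2.82-, 5.48- and at least 17.4-fold lower with the first and 1.43-, 2.78- and at least 8.83-fold lower with the second. CHEK1 read almost alike on both untreated arrays (0.79 and 0.86), and it was 1.81-, 3.08- and 4.96-fold lower with the first and 1.90-, 3.22- and 5.19-fold lower with the second. CHEK2 was 1.79- to 1.98-fold lower with the first and 3.14- to 3.48-fold lower with the second. CDC25C was 1.52-, 1.14- and at least 12.0-fold lower with the first and 6.19-, 4.63- and at least 49.0-fold lower with the second. WEE1 was 2.14-, 1.35- and 2.44-fold lower with the first and 4.49-, 2.83- and 5.13-fold lower with the second. So CHEK1, CHEK2, CLSPN, WEE1, CDC25A and CDC25C were below, and SFN above, both 0 h arrays at all 3 times. The sizes for most of them were not settled. A difference from the p53-/- 0 h array holds genotype and treatment together, and the label of the other 0 h array is in doubt. Neither reference thus gives the response of p53+/+ cells to ADR alone.

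**Figure D3:**
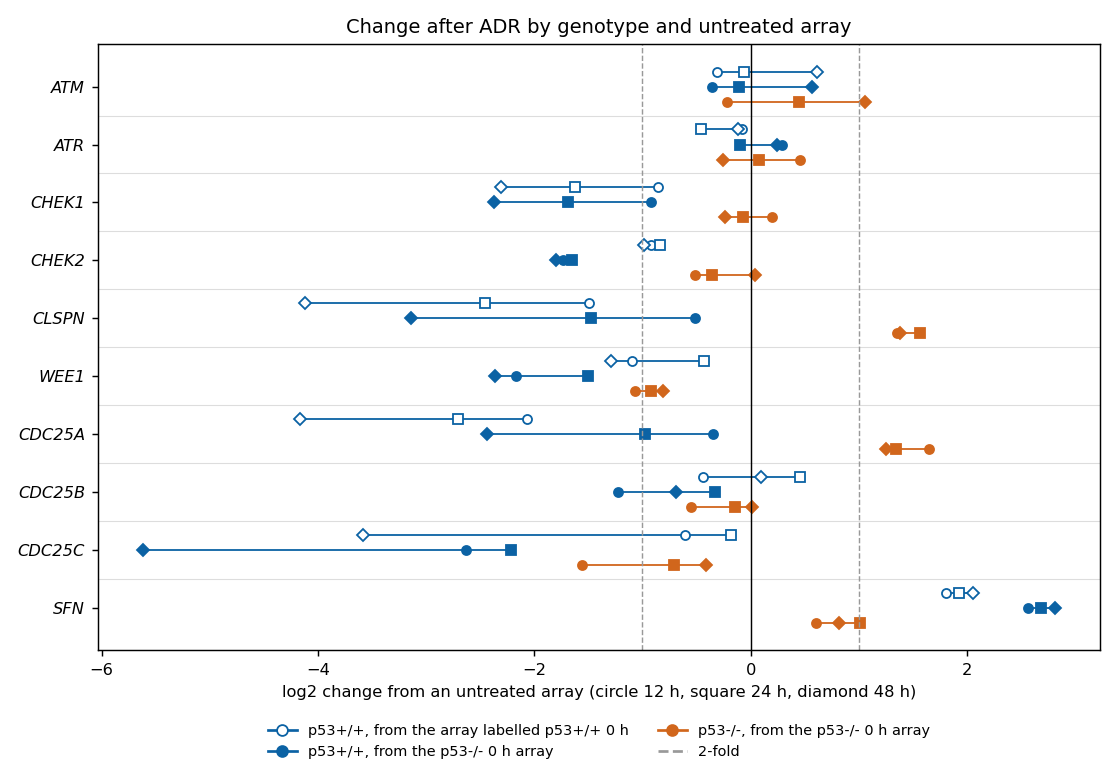
Log2 change after ADR (horizontal axis) for each gene (vertical axis), with circles, squares and diamonds for 12, 24 and 48 h and lines spanning the 3 times. Open blue points are p53+/+ arrays minus the array labelled p53+/+ 0 h. Filled blue points are the same arrays minus the p53-/- 0 h array, so they hold genotype and treatment together. Orange points are p53-/- arrays minus the p53-/- 0 h array. The 48 h p53+/+ values of CLSPN and CDC25C are bounds. CLSPN and CDC25A lie below 0 in p53+/+ cells with either reference and between 1.25 and 1.65 in p53-/- cells.

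Whether the change from 0 h differed between the genotypes was tested with the interaction of genotype and treatment, for which each 0 h group is 1 array and the p53+/+ one is the array in doubt. limma called 0.94% of probes with a more positive and 0.746% with a more negative change in p53+/+ cells, and none of the 10 genes. At an unadjusted p under 0.05, 2 of the 10 passed, CDC25A in the negative and SFN in the positive direction, a share near the 17.1% of all probes. CDC25A had an interaction of −4.39 (SE 1.03, adjusted p = 0.0966 from limma) and SFN of 1.12 (SE 0.38, adjusted p = 0.208). CLSPN had the largest interaction, −4.74 (SE 2.13, adjusted p = 0.323 from limma). That of WEE1 was −0.01 (SE 0.53), since WEE1 was 2.10-fold lower on the array labelled p53+/+ 0 h than on the p53-/- 0 h array, much as after treatment. An interaction that misses the threshold in this design does not show that the genotypes responded alike.

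The rest of the pathway was read from lists of genes around these 10. Of 18 checkpoint sensors and mediators, which find damage and dock the kinases, 5 were called lower in treated p53+/+ cells and none higher. Over all probes, limma called 7.4% lower and 10.6% higher. At an unadjusted p under 0.05, 10 of the 18 were lower and none higher, beside 9850 of 28947 probes in either direction. The median estimate of the 18 genes was −0.53, against 0.09 over all probes tested. The largest called differences were those of TIPIN, a fork protection factor (−1.80, SE 0.32, adjusted p = 0.0139), RAD9A, part of the clamp that helps activate ATR (−1.74, SE 0.26, adjusted p = 0.00746), and RNF168, a ubiquitin ligase at breaks (−1.22, SE 0.25, adjusted p = 0.0202), all from limma and all lower at 3 of 3 times. RNF168 was not well above background at 12 and 24 h in p53+/+ cells. The other called genes were RAD1, of the same clamp as RAD9A, and the scaffold MDC1. ATRIP, the partner of ATR, and the break-sensing genes NBN, MRE11 and RAD50 were not called, with estimates of −0.25, −0.50, −0.26 and 0.11. BRCA1 and TIMELESS had larger estimates than TIPIN, −3.13 (SE 1.07) and −2.07 (SE 0.69), without passing the threshold (adjusted p = 0.0919 and 0.0839 from limma). BRCA1 was not well above background at 48 h in p53+/+ cells.

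The cyclin-dependent kinases, their cyclins and PKMYT1, on which CDC25 and WEE1 act or which work beside them, differed most. Of 8 genes 4 were called lower and none higher, beside 7.4% and 10.6% of all probes. At an unadjusted p under 0.05 from limma, 6 were lower and none higher, beside 9850 of 28947 probes in either direction. The median estimate was −3.06. CCNE2, a cyclin of the start of DNA synthesis, read −1.11, −2.89 and −5.61 in treated p53+/+ cells, the last not well above background, and 1.74, 1.67 and 1.37 in treated p53-/- cells (estimate −4.80, SE 1.03, adjusted p = 0.0238 from limma). CCNA2 had an estimate of −3.47 (SE 0.86, adjusted p = 0.0368 from limma) and CCNE1 of −2.69 (SE 0.40, adjusted p = 0.00728). The 4th called gene was CDK2, the target of CDC25A (−1.80, adjusted p = 0.0149 from limma). CDK1, CCNB1, CCNB2 and PKMYT1 had estimates of −2.88, −2.80, −3.36 and −3.24 without passing the threshold, with SE of 0.77 to 1.47. In p53+/+ cells CDK1 read 2.07, 1.97 and −2.99 at 12, 24 and 48 h, and CCNB1 1.47, 1.33 and −1.37. CCNB2 read 1.85, 2.10 and −3.25, and PKMYT1 3.97, 3.89 and −1.74. The p53+/+ 48 h array, which lacked spike-in signal, thus weighs heavily in these 4 estimates and in the list median. CCNE1 was also called in the interaction (−4.72, adjusted p = 0.0454 from limma), as were 0.746% of all probes in that direction. This value rests on the array labelled p53+/+ 0 h, where CCNE1 read 3.83, against 1.80 on the p53-/- 0 h array. In treated p53+/+ cells it read 1.77, 0.65 and 0.61, so at 12 h it lay near the p53-/- 0 h level. Like CDC25A and CLSPN, CCNE1 was at least 2-fold higher than at 0 h at all 3 times in p53-/- cells, as was CCNE2.

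Among 6 genes of checkpoint recovery and of the turnover of CDC25A, WEE1 and CLSPN, 3 were called lower and 1 higher. Over all probes these shares were 7.4% and 10.6%, and the median estimate of the 6 genes was −1.16. The lower ones were the mitotic kinase PLK1 (−3.49, SE 0.58, adjusted p = 0.0110), the kinase AURKA (−2.43, SE 0.51, adjusted p = 0.0225) and its activator BORA (−2.38, SE 0.52, adjusted p = 0.0249), all from limma. PLK1 and BORA were not well above background at 48 h in p53+/+ cells. The higher one was PPM1D, a p53 target whose phosphatase acts on ATM, CHEK1 and CHEK2. PPM1D read 1.24, 1.54 and 0.93 in treated p53+/+ and −0.59, −0.39 and −0.47 in treated p53-/- cells (estimate 1.72, SE 0.21, adjusted p = 0.00413 from limma). BTRC and FBXW11, which mark CDC25A, WEE1 and CLSPN for degradation, were not called (0.06 and 0.47). Of the 6 other 14-3-3 genes, 1 was called lower and none higher, beside the same 7.4% and 10.6%, and the median was −0.15. YWHAH read 0.84, 0.58 and 0.89 in treated p53+/+ and 1.68, 1.76 and 1.69 in treated p53-/- cells (estimate −0.94, SE 0.18, adjusted p = 0.0163 from limma). None of the 6 was at least 2-fold lower or higher at all 3 times, beside 5.92% and 6.75% of all genes. For 6 genes this is near those shares, so the count says little of these genes. SFN was at least 2-fold higher at all 3 times.

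**Figure D4:**
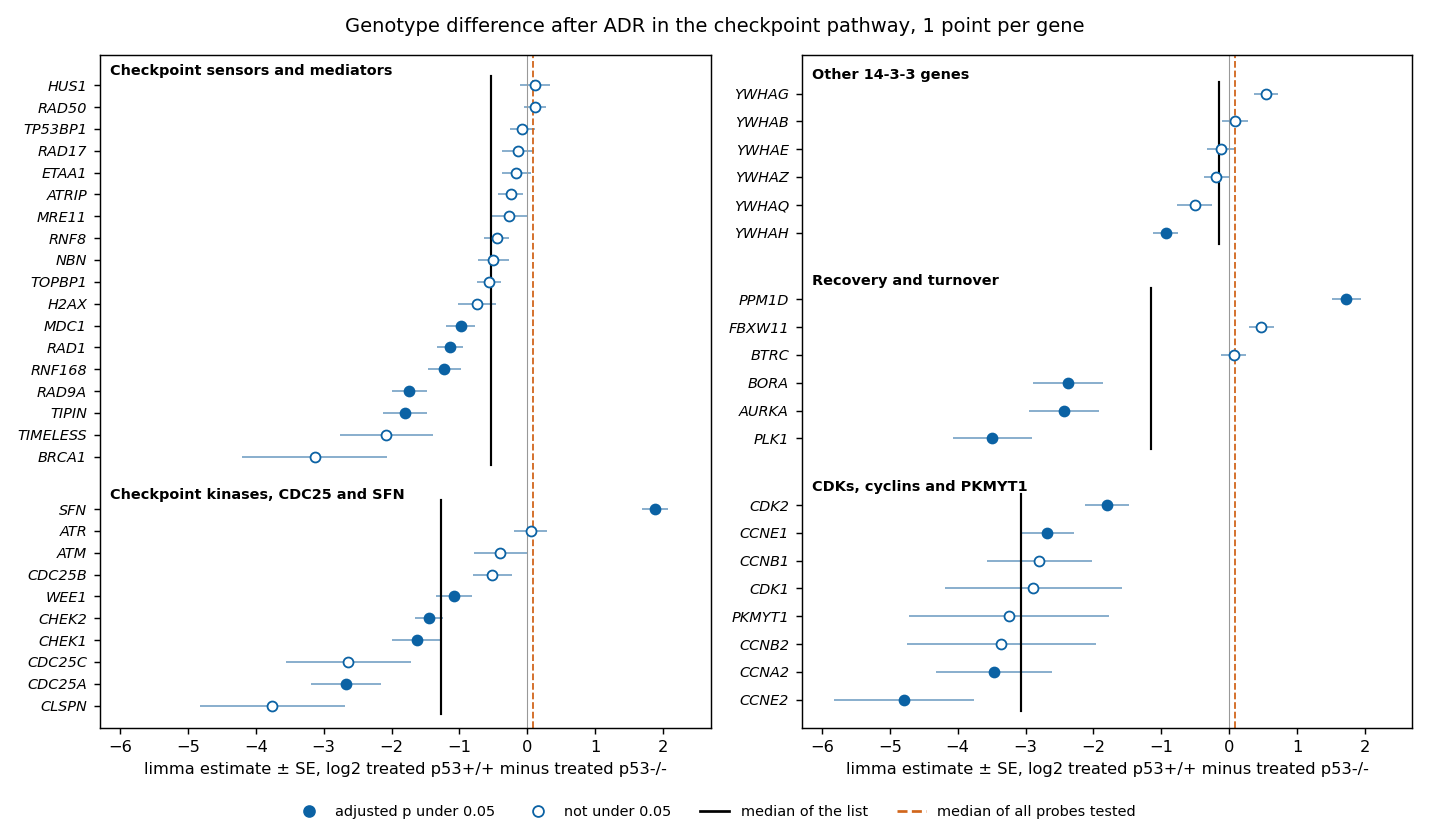
limma estimate ± SE of log2 treated p53+/+ minus treated p53-/- (horizontal axis) for each gene (vertical axis) of the 10 checkpoint genes and of the 4 lists around them. Filled points have an adjusted p under 0.05, black lines are list medians and the dashed line is the median of all probes (0.09). The cyclin-dependent kinases and cyclins have the lowest median (−3.06), and SFN and PPM1D are the called genes to the right of 0.

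The genes whose level over the 8 arrays was most like each of these were found among 12886 named genes well above background on at least 6 arrays, by Pearson's r. These r are descriptions: the arrays fall into the treated p53+/+ arrays and the rest, and the values of an array share its scaling. Those of CLSPN and CDC25C also take p53+/+ 48 h values that were not well above background and were the lowest of each gene. CLSPN was most like ASF1B (r = 0.998), FAM111B and MYBL2, and CDC25A most like RAD18 (r = 0.991), GINS3 and MASTL. CHEK1 was most like CENPX (r = 0.996), CDCA4 and LMNB1, and CDC25C most like KIF14 (r = 0.994), NEK2 and GAS2L3. CHEK2 was most like MDC1 (r = 0.988), STK17B and RNF26, and WEE1 most like CKAP5 (r = 0.973), ZNF107 and PLK1. SFN was most like NINJ1 (r = 0.996), MTMR1 and TSG101. For ATM the closest were ZNF587 (r = 0.989), ZC3H12A and BOD1L1, for ATR ACOX3 (r = 0.970), ANAPC10 and MITD1, and for CDC25B CDKN1B (r = 0.950), C5 and ZNF251.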

How the data were processed

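Each array was a single-colour Agilent human gene expression array holding 1 Cy3-labelled RNA sample. The authors deposited the scanner output of Agilent Feature Extraction 10.7.3.1, which gives every spot a background-corrected (processed) signal intensity. They also deposited a table of processed signals. For 503808 of 503808 values it equalled the scanner output within a relative difference of 0.0001. The sources used here name no further normalization by the authors. From the intensities, log2 processed signal was taken minus log2 of the array's 75th percentile over its 58717 non-control spots. Spots flagged as outliers (233 to 370 an array) were left out and the spots of a probe averaged. No spot was saturated. Of 42391 probes 64.2% were named through the RefSeq table of GRCh38.p14, and for each gene the probe of highest average level was used. The fits took the 28947 probes that were well above background on 1 array or more.

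Genotype among the 6 treated arrays and the interaction of genotype and treatment over 8 arrays were fitted with limma 3.58.1 (R 4.3.3), with Benjamini-Hochberg adjustment and a threshold of 0.05. The size rule asked for 2-fold in the same direction at all 3 times. The technical SD came from 999 probes printed in 10 or more spots. Where only 1 of the arrays compared was dim, the fold is a bound against the lowest signal well above background there. The genes and lists were chosen with earlier results of these data known, among them lists of p53 targets, epithelial and other cell type markers for checking labels. A further label check is not reported here. Genes named from the lists were the 3 with the largest called difference in each and the largest in the other direction. The most alike genes were the 3 with the highest r, and genes named beside these were chosen after their values were seen. Alternatives were other scalings, background correction with an offset of 50, filters, probe rules, time as a block, an intensity trend, other folds and leaving out each time. The number of arrays limits the precision. Python 3.11.15, numpy 2.4.6, pandas 2.3.3 and matplotlib 3.10.9 were used.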

Additional observations from a re-analysis of the deposited data

Results flagged for a closer look

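For CLSPN and CDC25A, the changes from 0 h had opposite signs in the genotypes: with p53 every one was below 0, and without p53 every one was above 0. The difference of the changes (p53+/+ minus p53-/-), averaged over the 3 times, was −4.74 on the log2 scale for CLSPN and −4.39 for CDC25A. Neither passed the adjusted threshold in the interaction fit of limma (adjusted p of 0.323 and 0.0966). Both values rest on the array labelled p53+/+ 0 h, whose label is in doubt, and that of CLSPN also on a p53+/+ 48 h value that was not well above background. With the p53-/- 0 h array as the reference, the values in p53+/+ cells were −0.52, −1.47 and at most −3.14 for CLSPN. For CDC25A they were −0.34, −0.98 and −2.44. All were below 0 at all 3 times, but they hold genotype and treatment together. The part of the label in these differences was not tested.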

How the results depend on the processing

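Scaling moved the counts over all probes. The genotype fit called 5201 probes, 58.8% of them higher in p53+/+ cells. It called 9393 (14.5% higher) without scaling, 9894 (73.3% higher) with normexp background correction and 12536 (78.4% higher) with no filter, while the share higher was 48.3% after quantile normalization and 45.7% with median scaling. The median estimate over all probes was 0.09, −0.51 without scaling and 0.28 with normexp. Leaving out a time gave 292 to 2670 calls, the fewest without 24 h. The interaction called 488 probes (272 higher), with 1296 (181 higher) without scaling, 1251 (831 higher) with normexp, 750 with an intensity trend, 60 with time as a block and 0 to 42 leaving out a time. Of the 10 genes, SFN and the 4 lower genes were called in the genotype fit, beside 10.6% of all probes higher and 7.4% lower. Leaving out a time gave 0 to 1 of the 10 genes higher and 0 to 3 lower, 0 without 24 h in both cases. Over all 28947 probes it gave 207 to 1459 higher and 85 to 1211 lower, the fewest without 24 h. In the interaction 2 genes (CLSPN and CDC25A) were lower with normexp, beside 420 of 28947 probes. With the filter on all 8 arrays 1 (CDC25A) was lower, beside 259 of 19278. In the size rule, p53+/+ cells had 2 genes lower than at 0 h, beside 6.39% of all genes. Without scaling there were 4 (adding CHEK1 and CHEK2), beside 12.4%. With 2 of 3 times enough there were also 4 (adding CHEK1 and WEE1), beside 11.5%. The filter on all 8 arrays or 3-fold left 1 (CDC25A), beside 4.62% and 3.02%. In p53-/- cells 2 genes were higher (3.21% of all genes), 1 with that filter (2.03%) and 0 at 3-fold (0.999%). Between treated arrays 5 were lower (5.92% of all genes), 3 with normexp (3.42%) or that filter (4.09%) and 2 at 3-fold (2.78%). When a gene's level was averaged over its probes, 4 were lower, beside 5.65% of all genes, and CHEK2 was lost. There were 6 (adding WEE1) without scaling (13.6% of all genes), without the 24 h arrays (6.44%) or with 2 of 3 times enough (11.4%). CLSPN passed the genotype threshold in 6 of 10 other settings, with adjusted p of 0.00228 to 0.242 from limma, CDC25C in 1 (normexp) and CDC25B in 1 (no scaling). No called gene changed direction in any setting. Pairing the genotypes by time, as a block, gave 4451 genotype calls, 2570 higher and 1881 lower of 28947 probes. Of the 10 genes, SFN was higher and 3 were lower (WEE1 was lost). The p53+/+ 48 h values rest on the array that lacked spike-in signal.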
